A study of Mus musculus with 6 samples.

Results

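G protein-coupled receptors whose name is Gpr followed by a number, together with the adhesion receptors named Adgr, were followed in mouse macrophages given nanoparticles. Members were taken by gene symbol alone: Gpr, a number and at most 1 letter, or Adgr, a letter and a number. This gave 103 genes, 76 Gpr and 27 Adgr, of the 55487 genes in the deposited table. The cells were macrophages grown from bone marrow of female BALB/c mice, wild type and aged 6 to 12 weeks, during 8 days with 20% of medium conditioned by L929 fibroblasts, a source of the growth factor CSF1. All of them were then polarized towards the M2 (alternative) state by IL-4 plus IL-13, each cytokine at 10 ng/mL, over 24 hours. A group of 3 libraries, called NP here, next received nanoparticles of poly(lactide-co-glycolide), 200 µg/mL, for 24 hours, under the treatment label PEMA, which the labels do not explain. The vehicle group of 3 libraries received PBS. Whether the 6 samples came from separate cultures or animals is not stated in the labels, and the spread behind each p-value may therefore be technical.

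Receptors of this superfamily cross the membrane 7 times and signal mostly through heterotrimeric G proteins, which raise or lower cyclic AMP, release calcium or act on the cytoskeleton. Adhesion receptors carry a long extracellular part that is cut from the membrane part as the protein matures and that binds surface proteins or matrix, and Adgre1, known as F4/80, is the classical surface marker of mouse macrophages. Most Gpr-numbered genes were named before a ligand was known. Some have since been matched to protons, lipids or metabolites, and several encode proteins of the Golgi or lysosome that do not signal as surface receptors.

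Total counts ran from 41974957 to 69450411 per library. Values are given as CPM, counts scaled for library size with no correction for gene length, and as TPM, which also divide by that length. Tested genes had 15 counts or more in total and 0.171 CPM or more in 3 or more libraries, and 39 members passed, 30 Gpr and 9 Adgr. Libraries of both groups contributed to that pass in each of the 39. Markers of the labelled cell type were abundant: 7 macrophage genes (Csf1r, Cd68, Itgam, Fcgr1, Mertk, Lyz2 and Cd14) summed to 11491 to 11799 CPM in PBS and 9338 to 10390 CPM in NP. The 4 mast cell and basophil markers had 0 counts in every library. The summed markers of T or NK cells and of B cells reached at most 1.29 and 0.797 CPM, both in PBS 2. Other sums were higher. Markers of neurons or glia summed to 38.3 to 43.3 CPM in PBS and 34.1 to 39.6 CPM in NP. Endothelial markers summed to 16.9 to 17.6 CPM in PBS and 18.3 to 19.3 CPM in NP. In both lists 3 of 4 genes lay under 1 CPM. Osteoclast markers summed to 53.0 to 57.9 CPM in PBS and 50.4 to 63.9 CPM in NP. Monocyte, dendritic cell and eosinophil markers reached at most 9.28, 3.94 and 3.70 CPM. Single genes in these low sums still moved. Log2 fold changes (NP minus PBS) ran from -0.11 to 4.98 over 3 tested dendritic cell markers, and 4.98 was the largest of all tested genes. They were -1.19 and 0.16 for 2 tested eosinophil markers and -0.86 for the 1 tested monocyte marker. Libraries PBS 2 and PBS 3 stood apart: their reads in genes of olfactory and vomeronasal receptors came to 136 and 153 CPM, while the other 4 libraries had 9.91 to 12.3 CPM, so counts without them are given where they differ.

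Of the 39 tested members 18 differed between NP and PBS at a limma voom adjusted p under 0.05, against 41.2% of all 14478 tested genes. Of these, 6 members rose (among them Gpr137b, Gpr157, Adgrg3, Adgrl2 and Gpr107) and 12 fell (Adgre1, Adgre5, Adgrg6, Adgrl1, Gpr65, Gpr183, Gpr34, Gpr18, Gpr155, Gpr141, Gpr85 and Gpr161). Over all tested genes 19.8% rose and 21.4% fell, beside 15.4% and 30.8% of the tested members. The median log2 fold change, taken as NP minus PBS throughout, was -0.18 over the tested members and -0.0035 over all tested genes. Over the members it ran from -0.32 without NP 2 to -0.13 without PBS 3 when 1 library was left out. The sets of tested members differed between these fits. In 23 members (59.0%) the 3 NP libraries did not overlap the 3 PBS libraries, beside 53.3% of all tested genes. Among the members only Adgrg3 rose at least 2-fold, as 1.35% of all tested genes did, and Gpr34, Adgrl1, Gpr18 and Gpr161 fell at least 2-fold, as 2.67% of all tested genes did. By level, 16 of the 30 members of at least 1 CPM were called, beside 47.4% of all genes of that level, and 10 of the 16 members of at least 10 CPM, beside 51.9%. In these bulk samples, fewer cells of a type and less RNA per cell cannot be told apart.

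**Figure D1:**
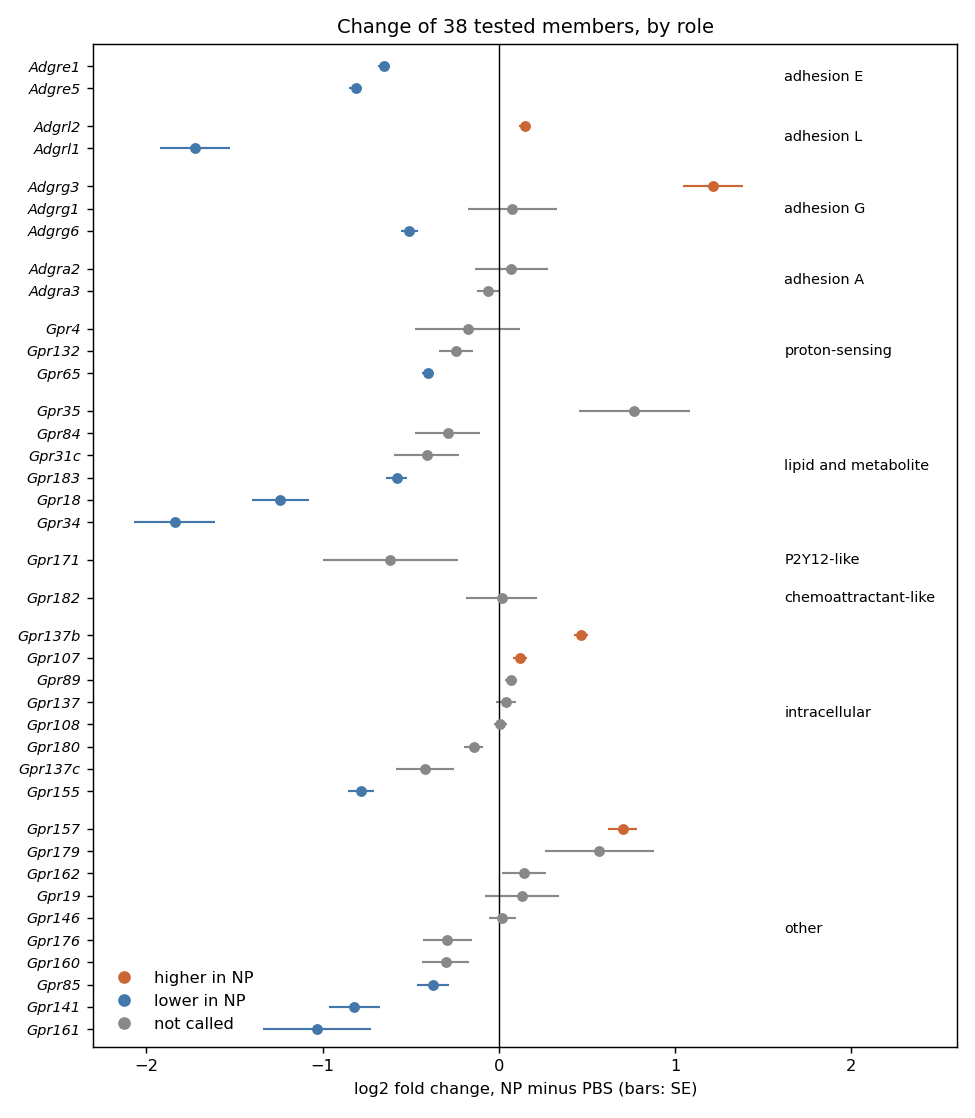
Log2 fold change (NP minus PBS, x axis) of 38 tested members, grouped by role on the y axis, with bars for the standard error from limma voom. Orange points are 5 members called higher, blue points the 12 called lower and grey points the 21 not called.

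Both tested E adhesion receptors, which belong to leukocytes, fell. Adgre1 stood at 411, 394 and 405 CPM in PBS 1 to 3 and at 257, 266 and 247 CPM in NP 1 to 3. Every NP library lay far below every PBS library, and the level dropped to 0.636 of its PBS value (log2 fold change -0.65, SE 0.04, limma adjusted p = 6.63e-06). Adgre1 lies on chromosome 17 at 57358691 to 57483527 on the plus strand (GRCm38, GENCODE M21), and no other annotated gene shares its exonic bases. Adgre5, or CD97, a leukocyte receptor that binds the complement regulator CD55, stood at 140, 146 and 147 CPM in PBS and 79.5, 83.4 and 84.2 CPM in NP. Its groups were again well apart (log2 fold change -0.81, SE 0.04, limma adjusted p = 1.51e-06). Ddx39, a helicase gene on the opposite strand, shares 23.8% of the exonic bases of Adgre5, and the strand setting of the counts is not given in the sources used here. Ddx39 itself had 63.1 CPM in PBS and 65.4 CPM in NP (log2 fold change 0.05, limma adjusted p = 0.294). The third gene of the subfamily, Adgre4, was too low to test, with 4, 14 and 64 counts in PBS 1 to 3 and 4, 5 and 2 counts in NP 1 to 3. Of the 7 macrophage markers 5 fell and 1 rose, beside 21.4% and 19.8% of all tested genes. Csf1r, the CSF1 receptor, had a log2 fold change of -0.59, and Ccr2, the monocyte chemokine receptor, fell from 8.59 to 4.79 CPM. The part of these shifts in the values for Adgre1 and Adgre5 was not tested.

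Per transcript length Adgre1 was the highest member in every PBS library and Gpr137b in every NP library. The level of Adgre1 was 434, 414 and 420.0 TPM in PBS and 262, 272 and 257 TPM in NP. Gpr137b, which encodes a lysosomal membrane protein that takes part in the control of the growth kinase complex mTORC1, stood at 283, 287 and 278 TPM in PBS and 396, 360 and 392 TPM in NP. The order of the pair therefore differed between the groups without overlap on this scale. A pseudogene, Gpr137b-ps, holds 34.8% of the 31-base words of Gpr137b transcripts and stood at 312, 321 and 318 CPM in PBS. The TPM of Gpr137b, and with it the order in PBS, therefore depends on how reads were divided between gene and pseudogene. In counts the ratio of Gpr137b to Adgre1 was 1.01, 1.08 and 1.03 in PBS and 2.34, 2.05 and 2.37 in NP. Together these 2 genes held 52.3% to 53.0% of the summed CPM of all members in PBS and 55.3% to 56.7% in NP. That sum was 1553 to 1571 CPM in PBS and 1470 to 1517 CPM in NP.

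**Figure D2:**
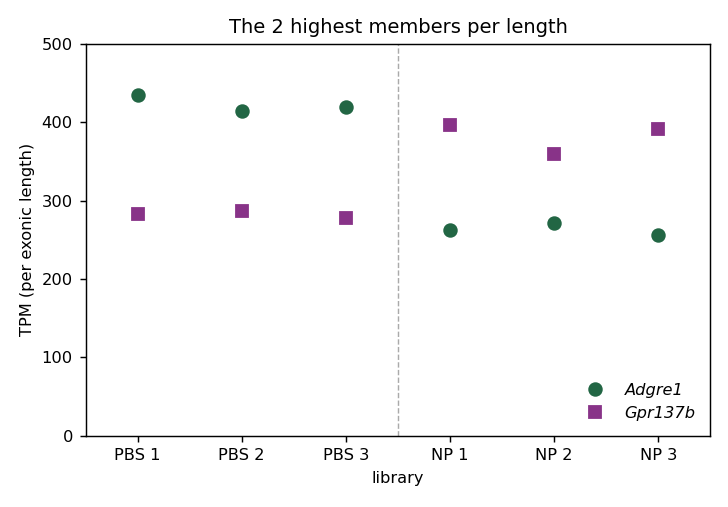
Level in TPM (y axis) of Adgre1 (circles) and Gpr137b (squares) in each of the 6 libraries (x axis). Adgre1 lies at 414 to 434 TPM in PBS, above Gpr137b, and at 257 to 272 TPM in NP, below it. The values of Gpr137b depend on how reads were divided with its pseudogene Gpr137b-ps.

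Latrophilins, the L adhesion receptors, bind teneurins and FLRT proteins on neighbouring cells, and their 2 tested members moved in opposite directions. Adgrl2 stood at 63.9, 61.8 and 62.0 CPM in PBS and 70.4, 69.5 and 68.1 CPM in NP, a small rise without overlap (log2 fold change 0.15, SE 0.03, limma adjusted p = 0.00528). Without PBS 2 and PBS 3, which leaves 1 PBS library, its value was 0.11 and the call was lost (limma adjusted p = 0.151). Adgrl1 was far lower in level and fell from 1.37, 1.48 and 1.29 CPM to 0.338, 0.464 and 0.447 CPM (log2 fold change -1.72, SE 0.20, limma adjusted p = 1.79e-04), which was 207 counts over the PBS libraries against 78 over the deeper NP libraries. A predicted gene on the other strand, Gm10644, shares 12.9% of the exonic bases of Adgrl1. Gm10644 had 1.03 CPM in PBS and 0.839 CPM in NP (log2 fold change -0.28, limma adjusted p = 0.227), and its part in the Adgrl1 counts was not tested. Adgrl3 had 38 and 36 counts in PBS 2 and PBS 3 and 0 in the other 4 libraries, and was not tested. Of 6 tested genes among 14 ligands of adhesion receptors, 1 rose and 1 fell, beside 19.8% and 21.4% of all tested genes. Flrt2, a latrophilin ligand, rose from 169 to 209 CPM (log2 fold change 0.31) and Cd55, the ligand of Adgre5, fell from 0.868 to 0.505 CPM (-0.82). The teneurin Tenm4 (-0.52, limma adjusted p = 0.389) and the collagen Col4a1 (0.51, limma adjusted p = 0.466) did not pass. Both were lowest within PBS in PBS 1. Tenm4 had 0.263, 0.938 and 0.565 CPM in PBS 1 to 3 and 0.485, 0.315 and 0.265 CPM in NP 1 to 3. Col4a1 had 0.0702, 0.305 and 0.370 CPM in PBS and 0.309, 0.315 and 0.232 CPM in NP.

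The G adhesion receptors showed 1 gene in each direction. Adgrg6, or GPR126, a receptor known from myelination by Schwann cells, stood at 53.2, 50.9 and 53.0 CPM in PBS and 35.0, 39.8 and 36.2 CPM in NP. All NP libraries were lower (log2 fold change -0.51, SE 0.05, limma adjusted p = 7.28e-05). Adgrg3, or GPR97, known from granulocytes, stood at 0.860, 0.891 and 0.779 CPM in PBS and 2.18, 1.74 and 1.98 CPM in NP. This was the largest increase among the 39 tested members (log2 fold change 1.22, SE 0.17, limma adjusted p = 4.55e-04), from 127 counts over the PBS libraries to 373 over the NP libraries. The 6 neutrophil markers summed to 0.584 to 0.825 CPM in PBS and 0.895 to 1.13 CPM in NP, with Ly6g and Camp at 0 in every library. S100a8 among them rose (log2 fold change 0.65, limma adjusted p = 0.0375), and its part in the Adgrg3 value was not tested. Adgrg1, or GPR56, a collagen receptor of microglia and NK cells, lies on the same strand of chromosome 8, with 3474 bases between it and Adgrg3. It had 0.246, 0.281 and 0.253 CPM in PBS and 0.279, 0.282 and 0.265 CPM in NP, with overlapping groups (log2 fold change 0.08, SE 0.25, limma adjusted p = 0.833). Of the A subfamily, Adgra3, a widely expressed orphan, had 9.66 ± 0.440 CPM in PBS and 9.29 ± 0.387 CPM in NP (SD, n = 3 each), with overlapping groups. The 3 B receptors were not tested. Adgrb1, or BAI1, which recognises phosphatidylserine on dying cells, had 1 count in PBS 3 and 1 in NP 3. Its partners in engulfment were expressed, and 5 of 7 tested fell and 0 rose, beside 21.4% and 19.8% of all tested genes. Among them were Elmo1 (-0.32), Dock1 (-0.27), Rac1 (-0.25) and Dock2 (-0.23), given as log2 fold changes. The list was not tested as a set.

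Proton-sensing receptors respond to extracellular acid. Gpr65, or TDAG8, which couples to cyclic AMP, stood at 50.7, 51.7 and 51.9 CPM in PBS and 38.97, 38.1 and 39.6 CPM in NP. It fell without overlap (log2 fold change -0.40, SE 0.03, limma adjusted p = 3.65e-05). The predicted gene Gm47566, which shares 24.7% of its exonic bases, had 0 counts in every library. Gpr132, also described as a sensor of oxidised fatty acids and lactate, had 15.1, 13.04 and 12.9 CPM in PBS and 10.2, 12.9 and 12.1 CPM in NP. The groups only just separated and the gene did not pass (log2 fold change -0.24, SE 0.10, limma adjusted p = 0.0711). It passed without PBS 2 and NP 2 (-0.35, limma adjusted p = 0.0233) and with sample quality weights (-0.22, limma adjusted p = 0.0375), and its value was smaller without NP 1 (-0.13, limma adjusted p = 0.31) or PBS 1 (-0.15, limma adjusted p = 0.305). Gpr4, outside the rule for named genes, lay at 0.206 and 0.184 CPM.

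**Figure D3:**
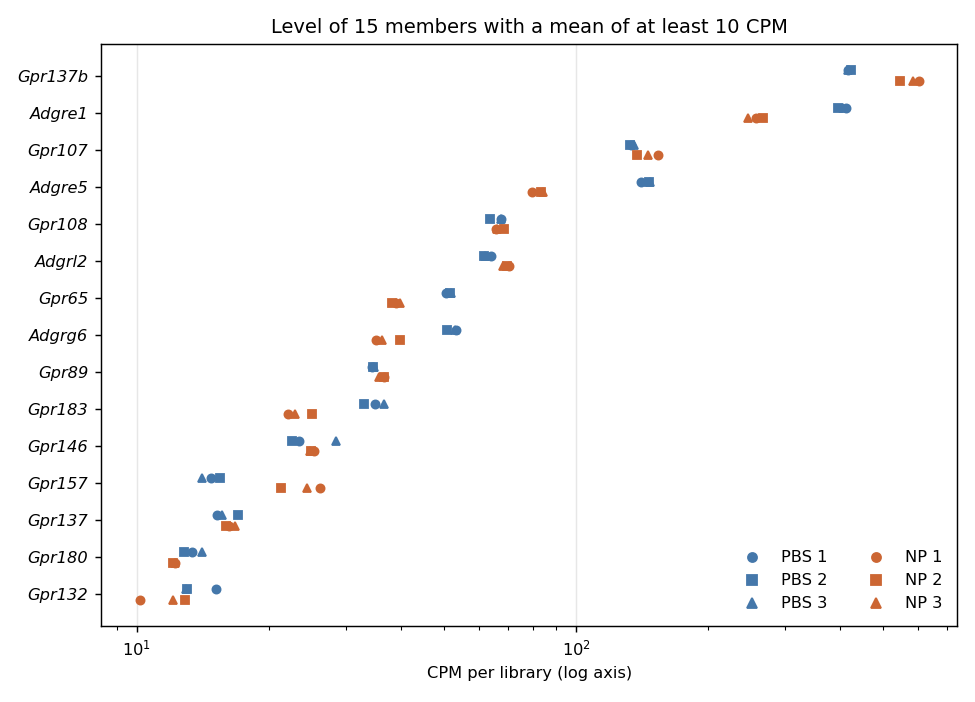
CPM per library (x axis, log scale) of 15 members with a mean of at least 10 CPM (y axis, ordered by mean), PBS in blue and NP in orange with 1 marker shape per library. Gpr137b is at 416 to 424 CPM in PBS and 546 to 603 CPM in NP, and the groups of Gpr108, Gpr146 and Gpr137 overlap.

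Receptors for lipids and metabolites had 3 of 6 tested members lower and 0 higher, beside 21.4% and 19.8% of all tested genes. Gpr183, or EBI2, which guides immune cells along gradients of oxysterols, stood at 34.9, 32.8 and 36.5 CPM in PBS and 22.0, 25.1 and 22.9 CPM in NP. It fell without overlap (log2 fold change -0.58, SE 0.06, limma adjusted p = 8.15e-05). Enzymes that make or remove its ligand moved too: Ch25h, which makes the precursor, fell from 58.8 to 35.3 CPM (-0.73), Cyp27a1 fell (-0.47) and Hsd3b7, which degrades the ligand, rose from 95.8 to 114 CPM (0.25). Cyp7b1, the enzyme that completes the ligand, had at most 1 count in any library. Gpr18, an orphan receptor of leukocytes for which lipid ligands have been reported, stood at 1.58, 1.52 and 1.56 CPM in PBS and 0.588, 0.713 and 0.678 CPM in NP. Its groups lay more than 2-fold apart (log2 fold change -1.24, SE 0.16, limma adjusted p = 3.41e-04), with 235 counts against 124.

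Gpr18 and Gpr183 are neighbours on chromosome 14, both on the minus strand, at 121911253 to 121915781 and 121952551 to 121965195 (GRCm38, GENCODE M21), with 36769 bases between them. Since both fell, the 250 bases before their start sites are shown, from RefSeq on GRCm38.p6, 5′ to 3′ in lower case.
Gpr18, chr14:121915889-121916138, minus strand: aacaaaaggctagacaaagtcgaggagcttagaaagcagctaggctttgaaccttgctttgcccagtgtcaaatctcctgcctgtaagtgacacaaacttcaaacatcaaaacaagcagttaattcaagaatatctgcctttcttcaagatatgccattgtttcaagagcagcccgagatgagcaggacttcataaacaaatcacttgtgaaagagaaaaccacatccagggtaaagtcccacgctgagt
Gpr183, chr14:121965194-121965443, minus strand: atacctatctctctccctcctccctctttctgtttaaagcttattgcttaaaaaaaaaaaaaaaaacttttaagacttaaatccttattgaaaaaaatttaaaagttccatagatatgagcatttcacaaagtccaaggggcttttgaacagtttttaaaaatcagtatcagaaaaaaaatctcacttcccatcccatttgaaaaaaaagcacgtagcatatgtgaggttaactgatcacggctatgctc
The G and C content was 42.4% for Gpr18 and 32.0% for Gpr183. A search of both strands for the letters CACGTG (E-box), TGACTCA (AP-1), TTCNNNNGAA (STAT6) and GAGGAAGT (PU.1) found no match in either window, which says only that these letters are not there. RefSeq held promoters for 72 of the 103 members and 29 of the 39 tested, and the share of all 32851 such windows with a match was 6.02%, 4.46%, 5.85% and 2.44% for these motifs in turn.

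Gpr34, a receptor for lysophosphatidylserine best known from microglia, fell most of all tested members in the main fit. It stood at 1.53, 1.99 and 2.24 CPM in PBS and 0.426, 0.613 and 0.546 CPM in NP, so that the lowest PBS library was above every NP library by more than 2-fold. The fitted level in PBS was 3.58 times that in NP (log2 fold change -1.84, SE 0.23, limma adjusted p = 2.77e-04), from 287 and 99 counts in all. Its rank depended on PBS 2 and PBS 3. Without both, which leaves 1 PBS library, Gpr34 was at -1.55 and Adgrl1 at -1.73. The pair stood at -1.71 and -1.77 without PBS 3. With the olfactory and vomeronasal reads as a covariate they stood at -1.51 and -1.72. Gpr34 lies on chromosome X at 13632089 to 13640858 on the plus strand, with no other gene on its exonic bases. Of 4 tested enzymes that form or break down lysophosphatidylserine 2 fell and 0 rose, beside 21.4% and 19.8% of all tested genes. Abhd16a (-0.27) and Abhd12 (-0.10), a lipase pair, fell. The phosphatidylserine synthases Ptdss2 (0.12, limma adjusted p = 0.102) and Ptdss1 (0.00, limma adjusted p = 0.984) did not pass. Among related receptors outside the naming rule, P2ry12, a purine receptor also known from microglia, fell from 3.70 to 1.01 CPM (-1.90). The steep falls were in members of low level: the 4 members that fell at least 2-fold all had a mean under 2 CPM, where 16 members were tested and 5.86% of all genes of that level fell as far. Gpr84, the receptor for medium-chain fatty acids, had 3.32, 3.63 and 3.08 CPM in PBS and 2.09, 3.63 and 2.73 CPM in NP, with overlap (log2 fold change -0.29, SE 0.18, limma adjusted p = 0.241), and the value ran from -0.07 without NP 1 (limma adjusted p = 0.772) to -0.48 without NP 2, where it passed (limma adjusted p = 0.0432). Gm49482, a predicted gene, shares 39.5% of its exonic bases and had 1 count in all. Gpr35, a receptor for tryptophan metabolites, had 0.544, 0.727 and 0.273 CPM in PBS and 0.897, 0.845 and 0.695 CPM in NP. It did not pass (log2 fold change 0.77, SE 0.31, limma adjusted p = 0.0765). The value was 0.38 without PBS 3 (limma adjusted p = 0.283) and 1.03 without PBS 2, where it passed (limma adjusted p = 0.043). Gpr31c, annotated as a processed pseudogene, had 1.69 and 1.303 CPM and did not pass (-0.41, SE 0.18, limma adjusted p = 0.107). It passed without PBS 2 and NP 2 (-0.61, limma adjusted p = 0.0441), and its value was smaller without NP 1 (-0.23, limma adjusted p = 0.385). Gpr55, a receptor for lysophosphatidylinositol, had 0, 2 and 2 counts in PBS and 2, 1 and 5 counts in NP and was not tested.

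**Figure D4:**
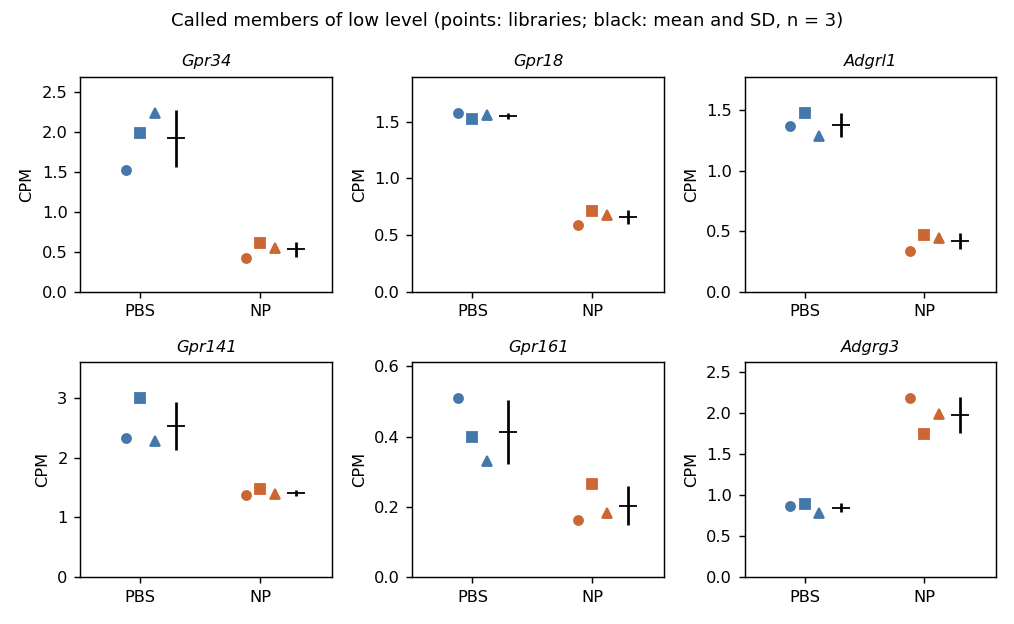
CPM per library (y axis, each panel from 0) of 6 called members of low level in PBS (blue) and NP (orange), with the mean and SD of 3 libraries in black. The groups do not overlap in any panel; Adgrg3 is higher in NP and the other 5 are lower.

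Among proteins of internal membranes that carry a Gpr name, 2 of 8 tested members rose and 1 fell, beside 19.8% and 21.4% of all tested genes. Gpr137b had the highest count level of all members, at 416, 424 and 416 CPM in PBS and 603, 546 and 585 CPM in NP. It rose to 1.38 times its PBS level (log2 fold change 0.46, SE 0.04, limma adjusted p = 3.67e-05). It lies on chromosome 13 at 13357620 to 13394014 on the minus strand. An unprocessed pseudogene, Gpr137b-ps, holds 34.8% of the 31-base words of its transcripts, so reads may be divided uncertainly between the 2 genes. The pseudogene rose too, from 317 to 432 CPM (log2 fold change 0.45, SE 0.04, limma adjusted p = 3.31e-05), and the sum of both went from 736 to 1010 CPM, a ratio of 1.37. Gpr155, a lysosomal cholesterol sensor that acts on mTORC1, went the other way. It stood at 10.6, 10.8 and 9.49 CPM in PBS and 5.85, 6.02 and 6.00 CPM in NP, with tight NP values (log2 fold change -0.78, SE 0.07, limma adjusted p = 5.98e-05). Gpr107, a Golgi protein of retrograde transport, had 134, 133 and 135 CPM in PBS and 154, 138 and 146 CPM in NP, a rise of 1.09-fold (log2 fold change 0.12, SE 0.04, limma adjusted p = 0.0395). This call was lost in 10 of 16 alternatives, among them each fit without 1 library except that without NP 2 (limma adjusted p = 0.0593 without PBS 1, 0.113 without PBS 2, 0.067 without PBS 3, 0.0877 without NP 1 and 0.115 without NP 3), and its direction was kept in all 16.

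Other members of that group did not pass. Gpr108, a Golgi relative of Gpr107, had 66.3 ± 2.18 and 66.7 ± 1.49 CPM (SD, n = 3 each), and Gpr89, the Golgi pH regulator, had 34.5 ± 0.240 and 36.2 ± 0.572 CPM, without overlap but with a log2 fold change of only 0.07 (limma adjusted p = 0.134). Gpr137 had 15.9 ± 0.918 and 16.3 ± 0.386 CPM (0.04, limma adjusted p = 0.583). Bad, a gene on the opposite strand that shares 15.4% of the exonic bases of Gpr137, had 25.9 and 24.5 CPM. Gpr180 went from 13.4 ± 0.612 to 12.2 ± 0.0629 CPM, with all NP libraries lower (-0.14, limma adjusted p = 0.0616). It passed with library totals as the only scaling (-0.18, limma adjusted p = 0.0246) and with sample quality weights (-0.14, limma adjusted p = 0.0387). Gpr137c, a relative of Gpr137b, lay at 1.149 ± 0.0946 and 0.852 ± 0.0684 CPM (-0.42, limma adjusted p = 0.0711) and passed under the filter of at least 1 CPM (-0.42, limma adjusted p = 0.0447) and with sample quality weights (-0.48, limma adjusted p = 0.0252). Gpr143, the melanosome receptor, had 0 counts in every library, which allows up to 0.0441 to 0.0703 CPM for counting error alone.

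Among the remaining receptors 1 of 10 tested rose and 3 fell, beside 19.8% and 21.4% of all tested genes. Gpr157, an orphan described in primary cilia, stood at 14.7, 15.5 and 14.1 CPM in PBS and 26.1, 21.3 and 24.4 CPM in NP. Its groups lay clearly apart (log2 fold change 0.70, SE 0.08, limma adjusted p = 1.79e-04). Gpr141, an orphan of blood cells, stood at 2.34, 3.00 and 2.28 CPM in PBS and 1.37, 1.47 and 1.39 CPM in NP (-0.82, SE 0.15, limma adjusted p = 0.00190). Gpr85, a conserved orphan best known from brain, fell from 11.7, 10.6 and 9.86 CPM to 7.72, 9.28 and 7.94 CPM (-0.37, SE 0.09, limma adjusted p = 0.00920). NP 2 came close to the lowest PBS library, and the call was lost without NP 1 (limma adjusted p = 0.06) or NP 3 (0.0684). Gpr161, a cilium receptor that restrains hedgehog signalling through protein kinase A, had only 29, 17 and 17 counts in PBS and 11, 16 and 11 counts in NP, or 0.413 and 0.203 CPM (-1.03, SE 0.30, limma adjusted p = 0.0227). It lost its call in each fit without 1 library except that without PBS 3 (limma adjusted p = 0.0812 without PBS 1, 0.0515 without PBS 2, 0.234 without NP 1, 0.111 without NP 2 and 0.198 without NP 3).

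Among the 29 tested members with a promoter window, only those of Gpr85 and Gpr161 held the STAT6 letters. That was 3 of 40 member windows (7.5%), near the 5.85% of all windows. IL-4 and IL-13, which signal through STAT6, were given to both groups, and a link to these matches was not tested. The windows of Gpr85 and Gpr161 are shown, 250 bases before the start, with the STAT6 letters in capitals (RefSeq, GRCm38.p6).
Gpr85, chr6:13839943-13840192, minus strand: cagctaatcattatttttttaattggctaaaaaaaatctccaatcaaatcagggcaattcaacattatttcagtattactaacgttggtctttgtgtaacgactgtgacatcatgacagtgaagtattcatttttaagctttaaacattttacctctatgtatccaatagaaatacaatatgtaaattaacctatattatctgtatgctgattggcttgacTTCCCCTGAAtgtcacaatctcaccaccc
Gpr161, chr1:165295516-165295765, plus strand: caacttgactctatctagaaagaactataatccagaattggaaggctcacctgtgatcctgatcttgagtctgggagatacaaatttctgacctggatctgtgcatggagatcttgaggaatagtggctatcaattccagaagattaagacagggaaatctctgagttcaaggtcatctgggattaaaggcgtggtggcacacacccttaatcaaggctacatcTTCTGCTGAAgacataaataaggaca
The capitals begin 29 bases before the start of Gpr85 and 26 before that of Gpr161. A further start of Gpr161 also held a match, 155 bases before it. A match of letters is a description and no evidence of binding. The AP-1 letters were found for Adgrg1 and Gpr35, the PU.1 letters for Gpr137 and Gpr137c and the E-box letters for no tested member with a window. AP-1 and PU.1 were each in 5.0% of member windows, beside 4.46% and 2.44% of all windows.

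Gpr146, a receptor known from cholesterol handling in liver, had 23.4, 22.6 and 28.3 CPM in PBS and 25.4, 25.0 and 24.8 CPM in NP, with full overlap (0.02, limma adjusted p = 0.847). Gpr176, linked to the circadian clock, went from 3.47 ± 0.336 to 2.85 ± 0.469 CPM (-0.29, limma adjusted p = 0.128) and passed with sample quality weights (-0.45, limma adjusted p = 0.0168), while without NP 3 its value was -0.15 (limma adjusted p = 0.404). The orphans Gpr160 (3.31 and 2.69 CPM), Gpr162 (2.80 and 3.11 CPM) and Gpr19 (1.03 and 1.08 CPM) had overlapping groups and did not pass. Gpr160 passed without PBS 2 (-0.41, limma adjusted p = 0.0354) and without PBS 2 and NP 2 (-0.44, limma adjusted p = 0.035), and its value was -0.19 without PBS 3 (limma adjusted p = 0.32). Gpr171, a neuropeptide receptor close to the P2Y12 family, lay at 0.226 and 0.147 CPM with overlap (-0.62, SE 0.38, limma adjusted p = 0.229). The other tested members outside the naming rule, named after their values were seen, were Adgra2, Gpr182 and Gpr179, at log2 fold changes of 0.07, 0.02 and 0.57, and they did not pass.

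The 64 untested members held few reads, and most of these came from the PBS libraries that stood apart. Of the 64, 12 had 0 counts in every library and 52 had some, at most 175 in all (Adgrv1). Summed, they made up 6.82 and 6.86 CPM in PBS 2 and PBS 3, against 1.26 to 1.64 CPM in the other 4 libraries, and 643 of their 987 counts (65.1%) were in those 2 libraries. In 17 of them both PBS 2 and PBS 3 were above every other library, and 14 had counts only there. Adgrv1, for example, a receptor of the inner ear and retina, had 5, 73 and 93 counts in PBS and 1, 1 and 2 counts in NP, and Gpr83, known from brain, had 1, 39 and 35 counts in PBS and 3, 2 and 3 counts in NP. PBS 1, at 1.40 CPM, lay within the range of the NP libraries. When PBS 1 was left out, Adgrv1, Adgrl3, Gpr83 and Adgre4 passed the filter and were called as lower (log2 fold changes -5.96, -6.63, -3.97 and -3.43), and the count of members called at least 2-fold lower went from 4 to 7. Without PBS 2 and PBS 3, 15 of 41 tested members were called, 4 higher and 11 lower, all of them among the 18 above. PBS 1 is then the only PBS library, the spread comes from the NP libraries alone and PBS 1 is assumed to vary like them. The calls lost in that fit were those of Gpr107 (log2 fold change 0.12, as with all libraries, limma adjusted p = 0.247), Adgrl2 (0.11 in place of 0.15) and Gpr161 (-1.34 in place of -1.03, limma adjusted p = 0.0554). The value of Gpr107 thus hardly moved and that of Gpr161 was larger.

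**Figure D5:**
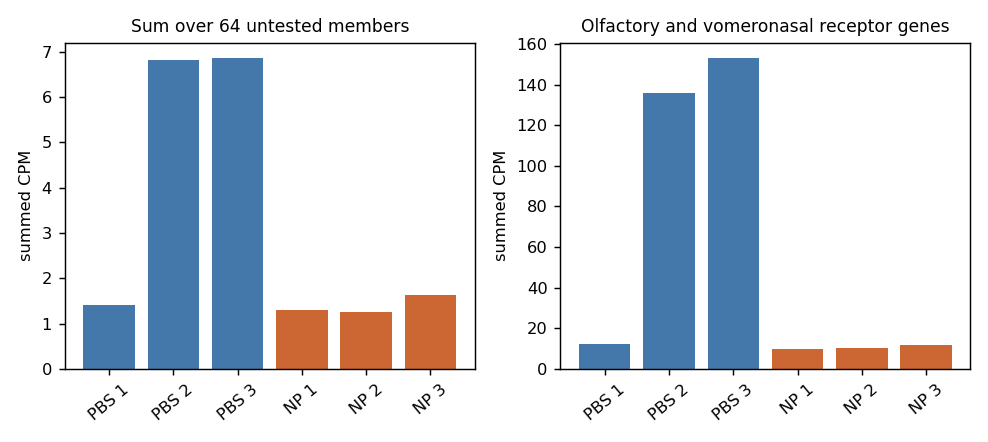
Summed CPM (y axis) in each library (x axis) over the 64 untested members (left) and over olfactory and vomeronasal receptor genes (right), PBS in blue and NP in orange. PBS 2 and PBS 3 reach 6.82 and 6.86 CPM on the left and 136 and 153 CPM on the right; the remaining bars are far lower.

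Genes that act downstream of these receptors were taken from lists by function. The counts below stand beside 19.8% of all tested genes that rose and 21.4% that fell, and no list was tested as a set. Of 11 tested G alpha subunits, 2 rose and 2 fell: Gna13 (log2 fold change 0.41) and Gnas (0.10) rose, and Gna12 (-0.39) and Gnai2 (-0.24), of the class that inhibits cyclic AMP synthesis, fell. Of 14 G beta and gamma subunits 4 rose and 4 fell, among them Gng10 (0.28), Gng11 (0.33), Gnb4 (-0.21) and Gng2 (-0.29). Of 5 tested adenylyl cyclases, the enzymes that make cyclic AMP, Adcy7 fell from 383 to 278 CPM (-0.46) and Adcy3 fell (-0.35), Adcy9 rose from 28.1 to 38.5 CPM (0.45) and Adcy6 did not pass (0.15, limma adjusted p = 0.807). Of 15 phosphodiesterases and protein kinase A genes 1 rose, Pde7b (0.58), and 5 fell, among them Pde4b (-0.67), Prkacb (-0.27) and Pde4d (-0.35). Regulators of G protein signalling, which switch G proteins off, had 4 of 13 higher and 6 lower. Rgs1 rose from 610.0 to 1009 CPM (0.73) and Rgs2 from 174 to 225 CPM (0.37), while Rgs10 (-0.48) and Rgs18 (-0.65) fell. The list of receptor kinases and arrestin-family genes had 2 of 11 higher and 5 lower, with Arrdc4 (0.71) higher and Arrb2 (-0.50), Grk2 (-0.27) and Grk6 (-0.34) lower. Of 14 related receptors outside the naming rule 4 rose and 5 fell. Gprc5b, an orphan of another class, rose from 15.9 to 60.3 CPM (1.93) and Celsr3, an adhesion receptor with cadherin repeats, from 8.12 to 12.0 CPM (0.56). Each of these lists held genes that moved in both directions, except the engulfment and lysophosphatidylserine lists. There 0 of 7 and 0 of 4 tested genes rose, beside 19.8% of all tested genes. The directions of such small lists were not tested.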

How the data were processed

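Each of the 6 poly(A) RNA libraries has a column of expected counts per gene in the table that the authors deposited, and these are not scaled. The submitters' processing notes name MultiQC 1.7, RSEM 1.3.3, STAR 2.7.8a, FastQC 0.11.8, cutadapt 2.3 and the build GRCm38. Annotation and strand setting: not given in the sources used here. Where a read matches more than 1 gene, RSEM shares it out. All values were whole numbers, and 4 reporter rows with 0 counts were left out.

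The planned count test was replaced by limma voom (limma 3.58.1, R 4.3.3), because the automatic unit check could not read the layout of the table. The fit used group alone over all 14478 tested genes, with TMM factors from 0.979 to 1.02 and 4 residual degrees of freedom. To each count 0.5 was added, and calls were made at a Benjamini-Hochberg adjusted p under 0.05. The code was also run on simulated counts with a fixed spread and far fewer changed genes than were called here. That run checked the code only and says nothing on the calls in these data. CPM uses TMM-scaled totals of tested genes. TPM uses exonic lengths of GENCODE M21, which matched 102 members. The labels do not say that replicate numbers pair the samples, and the main fit did not pair them.

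Every member of at least 1 CPM, every called member and a panel of immune receptors were named, and in each function list the 4 genes with the smallest p; 1 tested member is in the counts but is not reported here. Members and lists were chosen with earlier results of these data known. Alternatives were other scaling, filters, tests, weights, a covariate, a replicate block and left-out libraries. Intervals and limits cover counting error only.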

Additional observations from a re-analysis of the deposited data

How the results depend on the processing

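Under 16 alternatives, 14 of the 18 called members kept their direction and their call in every fit in which they were tested. The calls of Gpr107 (lost in 10), Gpr161 (7), Adgrl2 (2) and Gpr85 (2) did not, and Gpr132, Gpr137c, Gpr160, Gpr180, Gpr176, Gpr31c, Gpr35 and Gpr84 were called in 1 or 2 alternatives. The number of members called ran from 15 to 22 over all alternatives and from 15 to 20 without 1 library, and the number of genes called from 4077 to 6466 without 1 library. Genes called fell to 3392 with the olfactory and vomeronasal reads as a covariate and to 2972 without PBS 2 and PBS 3, where 2 residual degrees of freedom remained. The median log2 fold change of the tested members moved from -0.18 to -0.29 with a filter of at least 1 CPM, -0.30 with no filter, -0.22 with sample quality weights, -0.13 with the covariate and from -0.32 to -0.13 without 1 library, over differing sets of tested members. Signs turned only in members that were not called. Gpr108 went from 0.0084 to -0.0263 with library totals, -0.0183 with the covariate, -0.0236 without PBS 2 and PBS 3, -0.0361 without PBS 2 and NP 2 and between -0.0228 and 0.0385 without 1 library. Gpr146 went from 0.0206 to -0.0143 with library totals, -0.0319 without PBS 2 and NP 2 and between -0.0387 and 0.124 without 1 library. Gpr19 went from 0.13 to between -0.0748 and 0.307 without 1 library. The cause of these changes was not tested. With the replicate block 5022 genes and 17 members were called, Gpr107 being lost. For genes of at least 5 CPM, log2 levels were taken as deviations from the mean of each library's own group. These deviations correlated at -0.147, -0.252 and -0.231 between same-numbered libraries over 9928 genes, which gave no sign of pairing by number. With 3 libraries per group such values cannot settle whether samples were paired. PBS 2 and NP 2, left out together in 1 alternative, carry the library numbers 13 and 12. The other libraries carry 4, 5, 7 and 8, and the labels name no batch. Without the low-count filter Adgrg2 and Gpr22 were called in place of Gpr107 and Gpr161, from at most 14 counts in all. Depth limits the members under 1 CPM, 9 of which were tested.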
